A study of Mus musculus with 57 samples.

Results

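The genes described here are 31 microglia-enriched and complement genes, chosen by name with a mean of at least 10. All 31 were in the table and all 31 passed that filter, among 16659 genes tested. Prefrontal cortex RNA came from 57 C57BL/6N mice at postnatal day 25, of which 30 were heterozygous for Shank2 (HT) and 27 were wild type (WT). The pups had received vehicle, fluoxetine, an inhibitor of serotonin reuptake, or lithium, a mood stabilizer, through the milk of the mother from day 3 to 24. The arms held 8 WT vehicle, 10 HT vehicle, 10 WT fluoxetine, 10 HT fluoxetine, 9 WT lithium and 10 HT lithium libraries, of both sexes, 28 females and 29 males in all. Shank2 encodes a scaffold protein of excitatory synapses, and each HT mouse carries 1 WT copy of it. Values are normalized estimated counts per gene.

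Microglia are the resident macrophages of the brain. They depend on signals through the receptor of colony stimulating factor, sense neurons through receptors for chemokines and nucleotides, and engulf synaptic material that is tagged by complement. C1q, made of the products of C1qa, C1qb and C1qc, starts the classical complement cascade, C3 is its central component, and Itgam with Itgb2 forms a receptor for fragments of C3. Microglia are few among cortical cells, so in whole tissue fewer microglia and less RNA per microglial cell cannot be told apart.

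Some members lie side by side in the mouse genome. On GRCm38, C1qb (chr4:136880129-136886187), C1qc (chr4:136889804-136893065) and C1qa (chr4:136895917-136898803) follow each other on the minus strand, 3.62 and 2.85 kb apart. P2ry13 (chr3:59207892-59210882) and P2ry12 (chr3:59216272-59262871), receptors for extracellular nucleotides, are 5.39 kb apart on the minus strand. Tmem119 and Selplg are 18.02 kb apart on chromosome 5, and Fcgr3 and Fcer1g 165 kb apart on chromosome 1. RefSeq (GRCm38.p6) promoter windows were at hand for 23 of the 31 members. The letters GAGGAA, a core bound by the myeloid factor that Spi1 encodes, were searched on both strands in the 250 bases upstream of the start. They occurred in 12 of those 23 windows (52.2%) and in 25.9% of the windows of 27025 genes of the same length. The longer GAGGAAGT occurred in 1 of the 23, C1qc, and in 2.79% of all windows. Both windows below belong to members called in a comparison and to a member pair of neighbours that moved together; they run 5′ to 3′ on the minus strand, with GAGGAA in capitals. Among the neighbours of these genes, C1qc held the letters too, the P2ry12 window did not, and C1qa had no window at hand. A match of letters describes the sequence and is not a measured binding site. The C1qb window is chr4:136886201-136886450, with the match starting 30 bases before the start, and the P2ry13 window is chr3:59210883-59211132, with the match 48 bases before it.
C1qb: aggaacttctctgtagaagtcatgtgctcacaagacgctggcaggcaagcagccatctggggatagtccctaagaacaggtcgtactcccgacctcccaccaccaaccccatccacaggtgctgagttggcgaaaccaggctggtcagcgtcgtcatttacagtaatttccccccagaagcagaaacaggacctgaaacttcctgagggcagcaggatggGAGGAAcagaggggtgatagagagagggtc
P2ry13: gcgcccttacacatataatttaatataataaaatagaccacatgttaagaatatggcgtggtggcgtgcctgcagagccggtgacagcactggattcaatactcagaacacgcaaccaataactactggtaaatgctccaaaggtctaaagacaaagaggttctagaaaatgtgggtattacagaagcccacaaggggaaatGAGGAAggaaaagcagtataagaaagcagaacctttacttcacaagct

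Totals of the normalized values were 30.4 to 33.2 M per library (M, mega). The targeted gene followed the labels: Shank2 was 3877 to 5006 (median 4390) in HT libraries and 6762 to 11791 (median 9886) in WT libraries, with no overlap. A pair of libraries stood apart over all genes. HT fluoxetine male 3 held the lowest value of the 57 libraries in 2032 of 16659 genes and the highest in 2122, and WT vehicle male 2 in 3011 and 3074. For each of the other 55 libraries these counts ran from 62 to 957 and from 74 to 1178. Several results that rest on these libraries are given with and without them.

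The members spanned a wide range of levels. Per kb of transcript, Lgmn, a lysosomal cysteine protease, was highest (mean 1606 normalized counts per kb), ahead of the cysteine protease Ctss (996), C1qa (866), C1qc (854), C1qb (800) and the growth factor receptor Csf1r (739). P2ry12 (531), the signalling adaptor Tyrobp (479) and Cx3cr1 (412), the receptor of the neuronal chemokine fractalkine, followed. At the other end were the transcription factors Irf8 (60.9) and Spi1 (47.2), the integrin chain Itgb2 (42.9) and C3 (2.005). Per kb, the lowest Lgmn library lay above the highest Ctss library, while the ranges of the C1q genes and Csf1r overlapped, as did those of the neighbours among the lowest 4 except C3.

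Lgmn was also the steadiest member. Its within-group SD was 0.07 on the log2 scale, percentile 3.13 among all genes tested. Over arms its medians were 2960 (HT lithium) to 3169 (WT vehicle). C3 was the least steady, with an SD of 1.03, percentile 99.02, and values from 1.44 to 61.1 around a median of 6.20, close to the filter. The level of C3 in single libraries is therefore uncertain. The highest C3 libraries were in HT lithium (61.1), HT vehicle (60.1) and WT lithium (40.8), where the medians were 6.81, 3.97 and 8.13.

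Over the 15 comparisons that were not differences between the sexes' effects, 6 members were called at least at 1 place: C1qb, Gpr34, P2ry13, Aif1, Tyrobp and Lgmn. Sall1 was called only in differences between the sexes, and the other 24 in none. Among these, Csf1r had arm medians from 3061 (HT fluoxetine) to 3561 (WT lithium) and Ctss from 1247 (HT fluoxetine) to 1454 (WT vehicle). C1qa had arm medians from 822 to 960 and C1qc from 945 to 1105, both highest in WT vehicle. The tetraspanin Cd53, the lysosomal membrane protein Laptm5, the transcription factors Irf8 and Spi1 and the remaining members had overlapping ranges in every pair of arms.

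**Figure D1:**
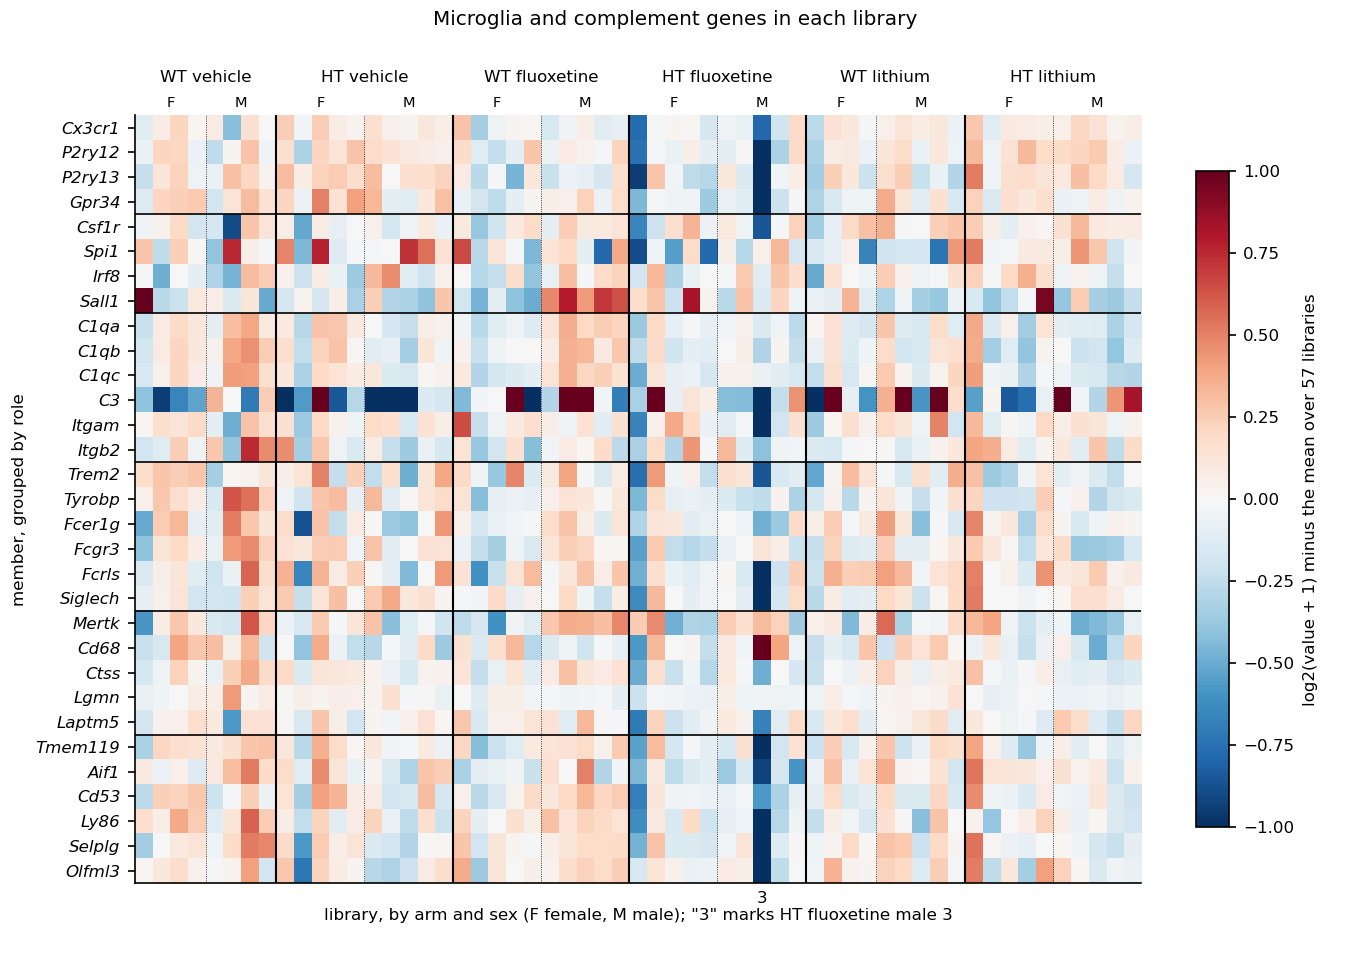
Heat map of the 31 members (rows, grouped by role) in 57 libraries (columns, by arm and sex). Colour is log2(value + 1) minus the mean of the gene over all libraries, with the colour scale ending at -1 and +1; HT fluoxetine male 3, marked 3, is blue in most rows, and Sall1 and C3 follow patterns of their own.

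Within groups, most members moved together from library to library. As a description, with group means removed, the correlation of each member with the mean of the other members over 57 libraries was highest for Selplg (r = 0.88), a mucin-like ligand of selectins, Ctss (0.87) and the microglial membrane protein Tmem119 (0.85). It was lowest for Cd68 (0.00), Sall1 (0.01), Lgmn (0.17), the phagocytic receptor Mertk (0.18), Spi1 (0.29) and C3 (0.32). Without HT fluoxetine male 3 the value for Cd68, a lysosomal glycoprotein of macrophages, was 0.35, and that for Sall1 was -0.03. These libraries share depth scaling and dissection, so the correlation is no measure of shared control.

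Of 18 member and ligand pairs, 8 had an adjusted p below 0.05 for Pearson's r with groups removed (permutation within groups, 100000 draws, two-sided, Benjamini-Hochberg over the 18). The C1q genes were the tightest: r was 0.88 for C1qa and C1qb (Spearman's rho 0.85), 0.85 for C1qa and C1qc (rho 0.81) and 0.81 for C1qb and C1qc (rho 0.77). P2ry12 and P2ry13 reached r = 0.83 (rho 0.78). All these had permutation p = 1e-05, the smallest the draws can give, and adjusted p = 4.5e-05. Leaving out the 2 libraries farthest from the median of the first-named gene of each pair gave 0.86, 0.82, 0.75 and 0.75 in that order. Extremes of the other gene stayed in. Tyrobp and Fcer1g, adaptors with an activating ITAM motif, had r = 0.52 (rho 0.52, permutation adjusted p = 0.00045 and 0.00119; 0.48 without 2 libraries). Fcer1g and Fcgr3, an Fc receptor for antibodies that signals through it, had r = 0.48 (rho 0.48, permutation adjusted p = 0.00045 and 0.00216; 0.47 without 2 libraries). Itgam and Itgb2, chains of the complement receptor, had r = 0.47 (rho 0.45, permutation adjusted p = 0.00226 and 0.00355; 0.44 without 2 libraries). Trem2, a lipid receptor, and its adaptor Tyrobp had r = 0.38 (rho 0.40, permutation adjusted p = 0.0259 and 0.0184; 0.32 without 2 libraries).

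The pairs that passed were all pairs of members, and most members moved with the mean of the others. That r was 0.78 for Itgam, 0.66 for Trem2, 0.63 for Fcer1g, 0.59 for Tyrobp, 0.56 for Itgb2 and 0.47 for Fcgr3. The pair tests therefore do not single out partners, and arbitrary pairs of members were not tested. The other 10 pairs missed the threshold for Pearson's r. Csf1r was not called with either of its ligands, Il34 (r = 0.13, rho 0.21, permutation adjusted p = 0.553 and 0.239) or Csf1 (r = 0.18, rho 0.21, permutation adjusted p = 0.354 and 0.229). Cx3cr1 and its ligand Cx3cl1 had r = 0.32 (rho 0.32, permutation adjusted p = 0.123 and 0.0457; r = 0.22 without 2 libraries), so only the rank correlation passed. Without WT vehicle male 2 and HT fluoxetine male 3 neither passed (r = 0.10, rho 0.23, permutation adjusted p = 0.505 and 0.165). C3 had r = 0.26 with C1qa and 0.19 with Itgam (permutation adjusted p = 0.123 for each). Tmem119 and Sall1, both used as microglial identity genes, had r = -0.13 (rho -0.17, permutation adjusted p = 0.47 and 0.308).

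Among the non-members most like the mean of the members, by r of within-group deviations over 57 libraries, were Itgb5 (0.89), Slco2b1 (0.85), Mpeg1 (0.84), Mfge8 (0.82), Gpr37l1 (0.82), Slc7a10 (0.82), Itm2a (0.81), S1pr1 (0.81), Rab3il1 (0.80), Pltp (0.79), Rgs5 (0.78), Lag3 (0.76), Vcam1 (0.76) and Cyth4 (0.76). Of all other genes tested, 3.05% had r above 0.5. The mean of 68 other microglia-enriched genes had r = 0.92, that of 11 endothelial and mural genes 0.76, of 9 border macrophage genes 0.73 and of 11 astrocyte genes 0.70. The means of 11 neuronal and 11 olfactory bulb genes had r = -0.19 and -0.11. Without HT fluoxetine male 3 these list values were 0.91, 0.73, 0.68, 0.72, -0.45 and -0.09 in the order given.

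Sall1, a transcription factor of microglial identity, followed another pattern. Its deviations correlated with the mean of 11 olfactory bulb genes at r = 0.90, and the genes nearest to it were Slc6a11 (0.94), Sall3 (0.94) and Dlx1 (0.93), the latter a factor of forebrain interneurons. Sall1 was 1193 to 1533 in the 5 WT fluoxetine males and 629 to 833 in the 5 WT fluoxetine females, with no overlap. The single highest library was WT vehicle female 1 at 2211. That library also held the highest summed level of the olfactory bulb list, 25001, against a median of 4828 over 57 libraries. The effect of fluoxetine in WT on Sall1 differed between the sexes by 1.28 ± 0.31 (SE) on the log2 scale, male minus female, with adjusted p = 0.026 by limma; in this contrast 2.53% of all genes were called. The difference between HT and WT under fluoxetine differed by -1.15 ± 0.29, limma adjusted p = 0.0393, with 1.79% of all genes called. No other member was called in either, and olfactory bulb genes moved with them: Dcx (1.77) and Sp8 (2.67) were called in the former, and 6 of the 11 in the latter, Doc2g by -4.20. The part of bulb tissue in the result was not tested. The former call was lost without WT vehicle female 1 (adjusted p = 0.148, effect 0.92), without WT vehicle male 2 and without WT fluoxetine male 2, and the latter without any 1 of 11 of 20 libraries (adjusted p up to 0.109).

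**Figure D2:**
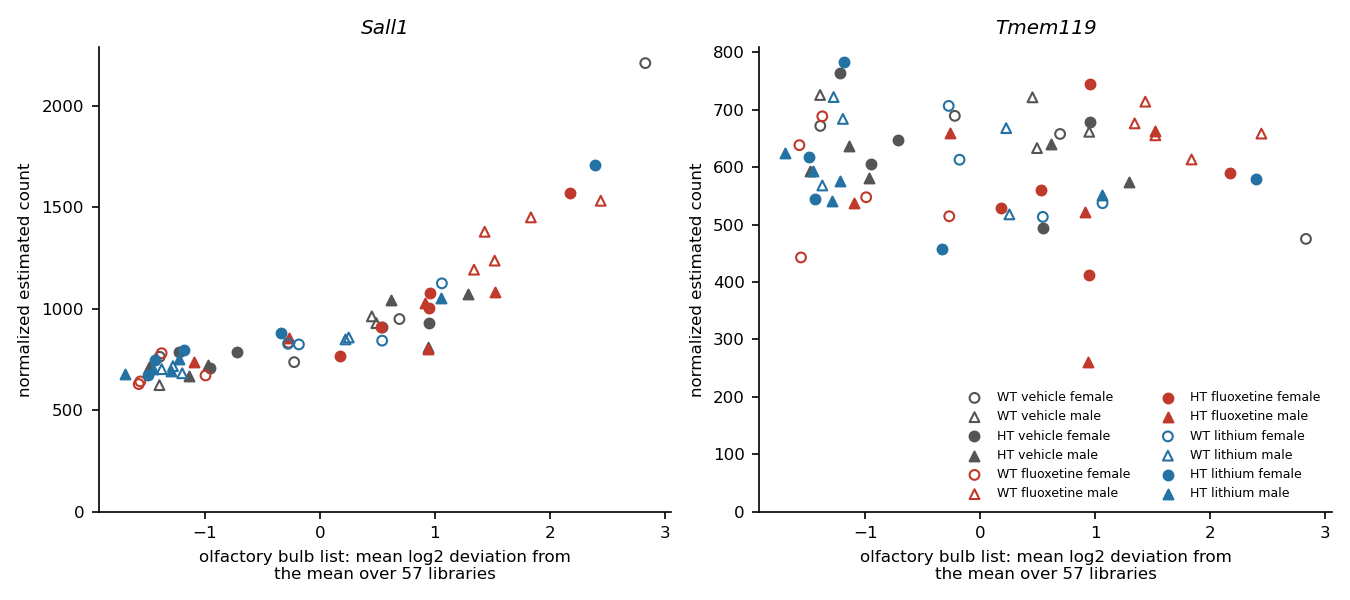
Sall1 (left) and Tmem119 (right) in normalized estimated counts against the mean log2 deviation of 11 olfactory bulb genes, 1 point per library, with colour for the drug, filled symbols for HT and triangles for males. Sall1 climbs with the bulb list up to 2211 in WT vehicle female 1, while Tmem119 shows no such slope.

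Mertk and Cd68 also had neighbours outside the microglial set. The gene nearest to Mertk was Ezr (r = 0.91), a membrane-cytoskeleton linker, followed by Sdc4 (0.86) and Fam107a (0.84), and Mertk had r = 0.48 with the astrocyte list and 0.47 with the border macrophage list. The nearest to Cd68 reached only 0.61 (Adamts14), and the nearest to Lgmn 0.66 (Psmb7, a proteasome subunit).

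For HT against WT, no member was called under vehicle by limma, where 0.762% of all genes were; 2 of 31 had an unadjusted p under 0.05, against 14.8% of all genes, and 22 changes were negative (median -0.06 on the log2 scale, against 0.00 over all genes). Under fluoxetine 0 of 31 were called (0.222% of all genes), with 11 at an unadjusted p under 0.05, all lower in HT, against 10.5% of all genes. There the median was -0.19, and -0.12 with 4 at that p without HT fluoxetine male 3. Under lithium 0 were called (0.114% of all genes) and 0 had an unadjusted p under 0.05 (7.75% of all genes), with a median of -0.01.

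Over all treatments 1 of 31 members was called in HT against WT, C1qb, against 3.74% of all genes. C1qb in WT was 760 to 1185 (median 963) under vehicle, 738 to 1101 (897) under fluoxetine and 755 to 980 (835) under lithium. In HT it was 684 to 1052 (852), 701 to 986 (804) and 654 to 1116 (774) in the same order. The ranges overlapped under every treatment, and the HT median was lower in each. The change was -0.16 ± 0.05 on the log2 scale (SE, limma adjusted p = 0.0347). C1qc (-0.13 ± 0.04, adjusted p = 0.0925) and C1qa (-0.10 ± 0.04, adjusted p = 0.235) missed the threshold. So did Ly86, a partner of a Toll-like receptor (-0.19 ± 0.06, adjusted p = 0.0646). The C1qb call was lost without any 1 of 10 of 57 libraries, HT fluoxetine male 3 among them, with adjusted p up to 0.0589. The median over members was -0.08, with 25 of 31 negative, against 0.00 and 49.5% negative over all genes. In the same contrast 3 of 68 other microglia-enriched genes fell by limma, the secreted protease inhibitor Cst3 (-0.16) and the lysosomal proteases Ctsz (-0.17) and Ctsd (-0.10), and 1 rose, the Cd47 receptor Sirpa (0.07). Of 19 activated microglia genes 2 fell, H2-Eb1 (-0.42) and Cd74 (-0.24), both of antigen presentation. Markers of other cells moved too. Of 11 astrocyte genes 3 fell, Ntsr2 (-0.16), S100b (-0.14) and Aldoc (-0.10), and of 11 neuronal genes Nefl fell (-0.12). Of 11 oligodendrocyte lineage genes 0 were called by limma, but 11 were negative and 8 had an unadjusted p under 0.05 (median -0.19). Their part in the C1qb result was not tested.

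Fluoxetine against vehicle gave the most member calls. Over both genotypes 5 of 31 members fell and 0 rose, when 4.75% of all genes were called and 3.07% were called as falls. They were Aif1, a calcium-binding protein of microglial processes, Tyrobp, the receptors Gpr34 and P2ry13 for lysophospholipids and nucleotides, and Lgmn. The count was 2 without WT vehicle male 2, and 3 without HT fluoxetine female 1, WT fluoxetine female 2 or WT vehicle female 3. It was 6 without HT fluoxetine male 3. The median over members was -0.10, with 25 of 31 negative, against 0.01 and 47.4% negative over all genes. Without HT fluoxetine male 3 the median over members was -0.07, with 24 of 31 negative.

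Gpr34 was 289 to 447 (median 356) in HT vehicle and 100 to 312 (295) in HT fluoxetine libraries. In WT it was 277 to 391 (356) under vehicle and 263 to 370 (311) under fluoxetine. The HT arms overlapped, but 7 of 10 HT vehicle libraries lay above the highest HT fluoxetine library; in WT 3 of 8 did. The fall was 0.30 over both genotypes (log2, SE 0.08, limma adjusted p = 0.0242), and this call was kept when any 1 of 38 libraries was left out. Without HT fluoxetine male 3 that change was -0.22. In HT alone the change was -0.47 ± 0.11 (limma adjusted p = 0.0458), the only member called there, against 0.33% of all genes. That call was lost without any 1 of 11 of 20 libraries. Without HT fluoxetine male 3, which held the lowest value, the change was -0.32 (adjusted p = 0.0611).

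Aif1 was 76.8 to 133 (median 101) in HT vehicle and 49.97 to 102 (82.4) in HT fluoxetine libraries, and 82.5 to 139 (103) under lithium. In WT it was 87.2 to 137 (102) under vehicle and 76.3 to 136 (92.1) under fluoxetine. All arms overlapped; 6 of 10 HT lithium libraries lay above the highest HT fluoxetine library. The change over both genotypes was -0.27 ± 0.07 (limma adjusted p = 0.0188), a call kept without any 1 of 38 libraries. Without HT fluoxetine male 3 that change was -0.24. Lithium exceeded fluoxetine in HT by 0.41 ± 0.10 (limma adjusted p = 0.0251), the only member called there, against 1.06% of all genes. That call was lost without HT fluoxetine male 3 (0.35, adjusted p = 0.0782), HT fluoxetine female 1, HT lithium male 1 or HT lithium male 3.

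P2ry13 was 306 to 381 (median 351) in HT vehicle and 120 to 372 (289) in HT fluoxetine libraries, and 261 to 376 (324) against 221 to 342 (292) in WT. In HT 7 of 10 fluoxetine libraries lay below the lowest vehicle library, HT fluoxetine female 1 and male 3 farthest. The change over both genotypes was -0.30 ± 0.09 (limma adjusted p = 0.0368), lost without any 1 of 10 of 38 libraries. Without HT fluoxetine male 3, P2ry13 changed by -0.24 and the call was kept. Its neighbour P2ry12 changed by -0.22 in the same contrast and was not called. In HT, P2ry12 moved from a median of 1262 to 1086, with a log2 change of -0.43 ± 0.15 (limma adjusted p = 0.168), or -0.21 ± 0.08 (adjusted p = 0.26) without HT fluoxetine male 3.

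Tyrobp was 240 to 412 (median 307) in WT vehicle, 198 to 294 (273) in WT fluoxetine and 221 to 297 (261) in WT lithium libraries. In HT it was 232 to 335 (281), 195 to 303 (246) and 217 to 317 (238) in that order. The ranges overlapped, and 5 of 8 WT vehicle libraries lay above every WT fluoxetine library and above every WT lithium library. The change was -0.23 ± 0.06 under fluoxetine (limma adjusted p = 0.0222) and -0.22 ± 0.06 under lithium (adjusted p = 0.0164), both over both genotypes and against the same vehicle libraries. The fluoxetine call was lost without WT vehicle male 2, the highest library (adjusted p = 0.055), and the lithium call was kept without any 1 of 37. Lgmn was 2907 to 3410 (median 3136) in HT vehicle and 2640 to 3205 (2969) in HT fluoxetine libraries, overlapping. Its change over both genotypes was small, -0.09 ± 0.03 (limma adjusted p = 0.0352), and the call was lost without any 1 of 6 of 38 libraries, WT vehicle male 2 among them (-0.06, adjusted p = 0.0806).

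**Figure D3:**
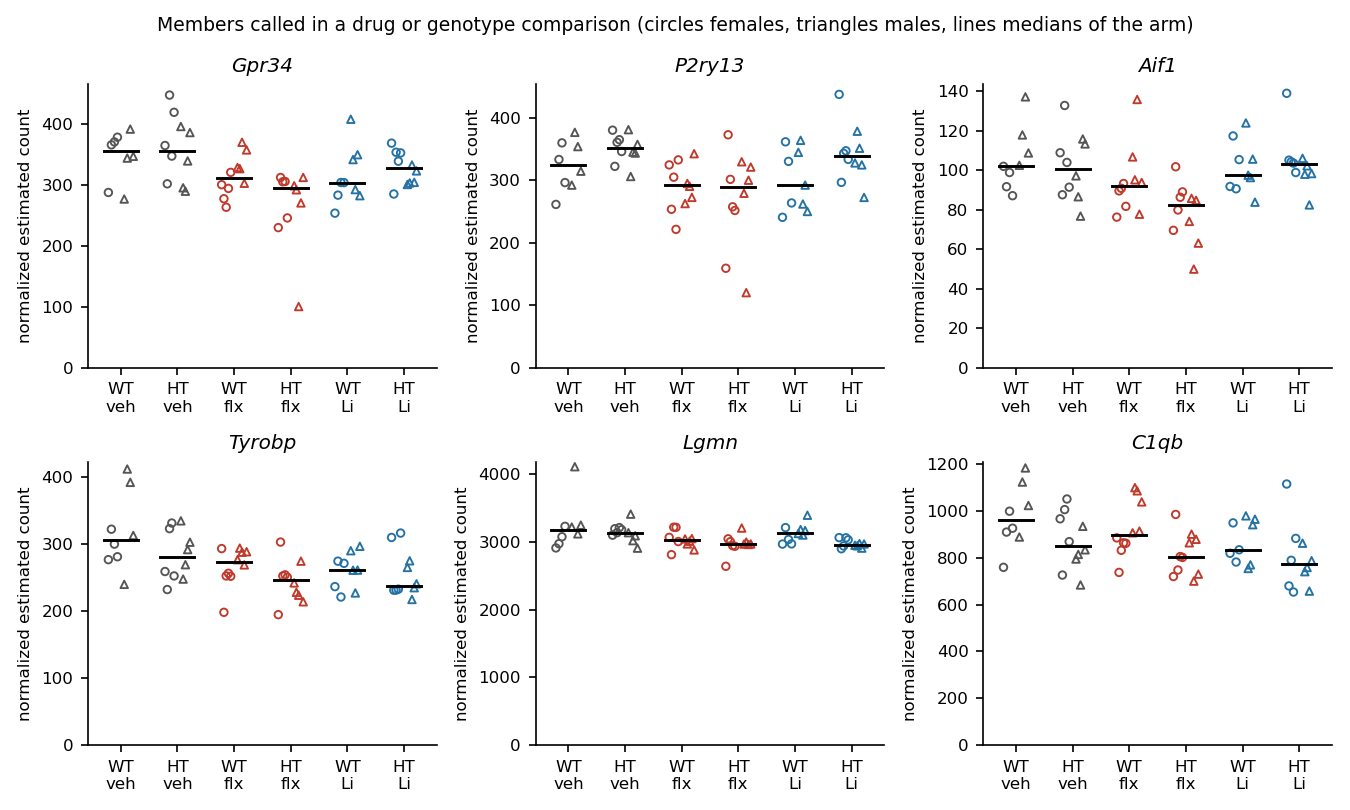
Normalized estimated counts of 6 members called in a drug or genotype comparison, by arm (veh, vehicle; flx, fluoxetine; Li, lithium), 1 point per library, circles for females, triangles for males and lines at the median of the arm. In HT, Gpr34 medians were 356 under vehicle and 295 under fluoxetine, and the arms overlap in every panel.

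Taken per genotype, fluoxetine gave 14 members with an unadjusted p under 0.05 in HT, all lower, against 14.6% of all genes, and 2 in WT, also lower, against 15.2% of all genes, a share above that of the members. The medians were -0.18 in HT and -0.05 in WT, where 0 of 31 were called by limma (0.84% of all genes). Without HT fluoxetine male 3 the HT median was -0.09, with 11 members at that p and 0 called. The difference of the fluoxetine effect between the genotypes was tested itself, and 0 of 31 members and 0% of all genes were called by limma. There 2 members, Siglech and Gpr34, had an unadjusted p under 0.05 (adjusted p = 0.623 and 0.635), as had 1285 of 16659 genes.

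Markers of other cells moved in the same contrast. Under fluoxetine over both genotypes, 4 of 5 red cell genes fell, Hbb-bs by 0.66 on the log2 scale. The summed level of those 5 genes was 3591 to 8818 (median 5253) in WT fluoxetine and 7673 to 19853 (11178) in WT vehicle libraries. In HT it was 1956 to 10547 (7057) under fluoxetine and 4217 to 12082 (7038) under vehicle, so the medians differed in WT and hardly in HT. Cldn5, a tight junction gene of endothelium, fell by 0.26 and was the only one of 11 endothelial and mural genes called. Olig2, a transcription factor of the oligodendrocyte lineage, fell by 0.33 (limma adjusted p = 0.00221), the only one of 11 genes of that lineage called. Of 68 other microglia-enriched genes 0 fell and 1 rose, the transcription factor Runx1 (0.43), with 55 of 68 negative and a median of -0.06. Of 19 activated microglia genes Cd9 fell, while the interferon targets Irf7 (0.39) and Ifit3 (0.28) rose. Of 9 border macrophage genes 0 were called by limma and 0 had an unadjusted p under 0.05. The dependence of values on spliced transcript length also moved. The correlation of the deviations of a library with that length had medians of -0.09 and -0.06 in WT and HT vehicle. The medians were 0.03 and 0.07 under fluoxetine and 0.09 and 0.13 under lithium. With that correlation as a term in the fit, 0 of 31 members were called for either drug over both genotypes. The share of all genes called was then 0.696% for fluoxetine and 1.27% for lithium. The part of these differences in the result was not tested further.

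Lithium against vehicle over both genotypes called 1 of 31 members, Tyrobp, against 13.3% of all genes, a share above that of the members. The median over members was -0.05, with 21 of 31 negative. Markers of other cells moved in this contrast by limma: of 11 oligodendrocyte lineage genes Olig2 (-0.31) and Cspg4 (-0.19) fell, of 11 astrocyte genes S100b (-0.14) fell, and of 11 neuronal genes Tubb3 (0.13) and Neurod6 (0.20) rose. Their part in the Tyrobp result was not tested. Fcgr3 (-0.17 ± 0.06, adjusted p = 0.0571) and C1qb (-0.15 ± 0.06, adjusted p = 0.0673) missed the threshold, as did C3 (0.71 ± 0.33, adjusted p = 0.143), which had the widest spread. In WT alone Tyrobp was the 1 member called (-0.28 ± 0.09, limma adjusted p = 0.0497, 8.53% of all genes). That call was lost without any 1 of 12 of 17 libraries, up to an adjusted p of 0.149 without WT vehicle male 2. In HT 0 members were called (0.888% of all genes), with 2 at an unadjusted p under 0.05 (12.8% of all genes), Fcgr3 and Lgmn. Lithium against fluoxetine in WT called 0 of 31 (0.222% of all genes), with 0 at an unadjusted p under 0.05 (9.99% of all genes). The lithium effect differed between the genotypes for 0 members and 0% of all genes by limma, with 0 members and 1218 genes at an unadjusted p under 0.05.

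Ligands of the members and of other microglial receptors moved little. The receptors of Cd47, Cd200 and Tgfb1 are not among the members. Cd47, a signal against engulfment, was 4085 to 5604 (median 4660) in WT vehicle and 4973 to 5894 (5626) in WT lithium libraries, overlapping, and rose under lithium by 0.15 ± 0.03 over both genotypes (limma adjusted p = 0.00359). Apoe, a lipid carrier that Trem2 binds, was 33060 to 45848 (median 37509) and 30381 to 36912 (33439) in the same arms and fell by 0.14 (limma adjusted p = 0.01). Gas6, a ligand of Mertk, fell by 0.08 in HT against WT (limma adjusted p = 0.0222). Il34, Csf1, Cx3cl1, Pros1, Tgfb1 and Cd200 were called in no comparison over both sexes. Of 16 other complement components tested, only Masp1, a protease of the lectin pathway, was called, up by 0.20 under fluoxetine over both genotypes. Of 16 complement regulators, Sez6l (0.11) and Csmd1 (0.11), both neuronal, were higher in HT over all treatments, and under lithium over both genotypes Cd55 rose (0.18) and Csmd2 fell by 0.16. Among 68 other microglia-enriched genes, the 4 called under lithium with the smallest adjusted p are named here, and not every called gene. Cst3 (-0.21), Rnase4 (-0.20) and Apbb1ip (-0.19) fell, while Tgfbr1 rose (0.23). Of all genes, 13.3% were called under lithium over both genotypes. The share was 4.75% under fluoxetine over both genotypes and 3.74% in HT against WT over all treatments.

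**Figure D4:**
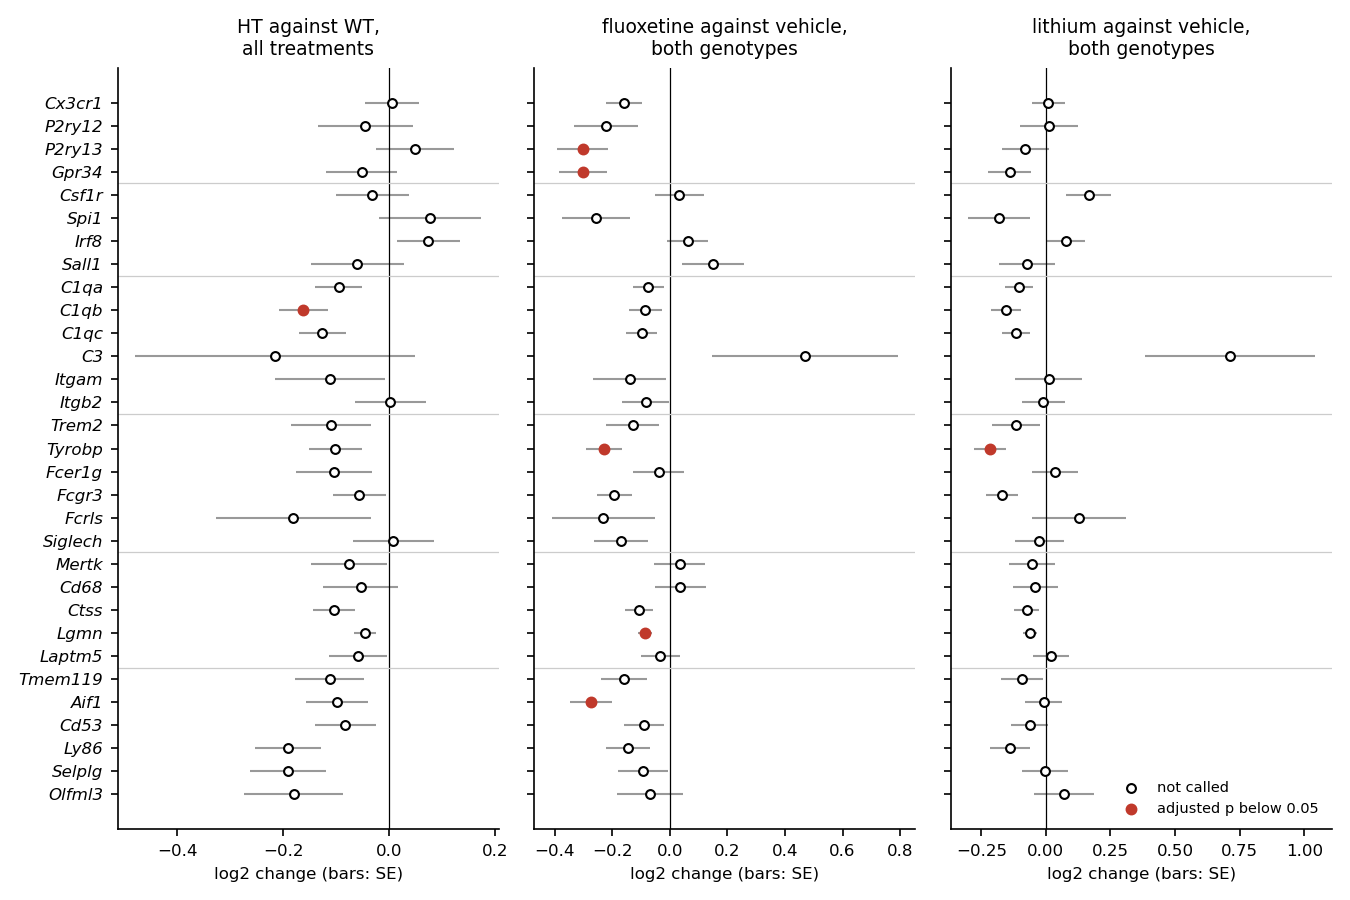
Log2 changes of the 31 members with their SE for HT against WT over all treatments, and for fluoxetine and lithium against vehicle over both genotypes; filled points passed an adjusted p of 0.05 by limma. The drug panels share their vehicle libraries, and 1, 5 and 1 members were called from left to right.

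Sex made no difference that limma called among the members over all arms: 0 of 31 passed (0.108% of all genes) and 0 had an unadjusted p under 0.05 (5.36% of all genes), with a median of 0.02. Of the 31 changes, male minus female, 13 were negative. Without HT fluoxetine male 3, 5 were negative and the median was 0.05. In that fit 0 members passed (0.12% of all genes), and 1 had an unadjusted p under 0.05, as had 784 of 16659 genes.

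The lowest member values belonged to few libraries. HT fluoxetine male 3 was below the other 4 males of its group in 22 of 31 members and above them in 3, and below all 56 other libraries in 13. Over all genes it held the lowest value of the 57 libraries in 2032 of 16659 and the highest in 2122. The share of all genes that lay below the other libraries of a group is not given for any library. The receptor-like Fcrls was 61.1 there and 691 to 941 in the other 4 males, and Itgam 128 against 623 to 791. P2ry12 was 242 against 920 to 1313, the secreted Olfml3 131 against 486 to 615, the lectin Siglech 106 against 321 to 412, and Selplg 260 against 650 to 778. These members lay far below the group, but others did not. C1qa (807, others 746 to 919), C1qc (971, others 912 to 1050), Tyrobp (224, others 214 to 275), Spi1 (96.1, others 76.1 to 117) and Lgmn (2997, others 2962 to 3205) lay within the range of the other males. Cd68 was 455, the highest of all 57 libraries, with 195 to 266 in the other males. Outside the members, C4b was 1183 there against 231 to 785 in the other 56 libraries, C3ar1 107 against 29.8 to 86.0, Lyz2 268 against 74.8 to 232 and Tlr7 254 against 73.0 to 242. C4b has a near-identical copy, C4a, so that its reads may be shared. Of 68 other microglia-enriched genes 23 were below and 2 above all other libraries. In addition, 9 of 19 activated microglia genes were below, and 3 of 9 border macrophage genes. So were 4 of 5 red cell genes, 4 of 11 each of the astrocyte, oligodendrocyte lineage and endothelial and mural genes, 2 of 11 neuronal and 0 of 11 olfactory bulb genes.

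**Figure D5:**
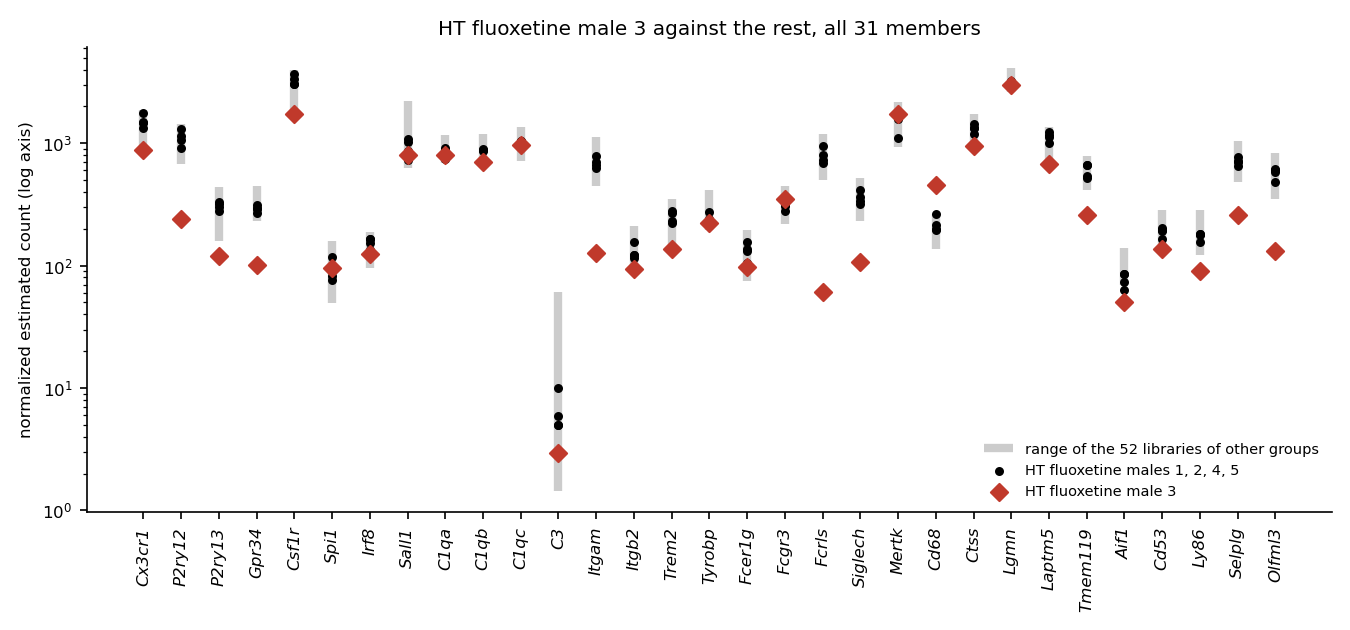
Values of the 31 members in HT fluoxetine male 3 (diamonds), in the other 4 males of its group (points) and the range over the 52 libraries of other groups (bars), on a log axis of normalized estimated counts. Fcrls, Itgam, P2ry12 and Olfml3 lie far below the rest, C1qa, Tyrobp and Lgmn within it, and Cd68 above it.

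In some other libraries the members moved more evenly. HT fluoxetine female 1 was below the other 4 females of its group in 28 of 31 members and above in 0, with a median difference of -0.42 on the log2 scale. HT vehicle female 2 was below in 24 (median -0.38), and WT vehicle female 1 was below the other 3 in 23 and above in 4 (median -0.20). WT vehicle male 2, which stood apart over all genes, was below in 8 members and above in 6, so its members moved both ways. It was below all 56 other libraries in 1 of 31 members and above them in 3, against 3011 and 3074 of 16659 genes. Its differences from the median of the other males of its group ran from -1.02 (Csf1r) to 0.76 (Spi1) on the log2 scale. It held the highest Lgmn (4110), Tyrobp (412) and Fcer1g (196) and the lowest Csf1r (1679) of all libraries. The exons of Csf1r overlap those of Hmgxb3 on the opposite strand by up to 873 bases, and those of Itgam overlap Gm49368 on the same strand by up to 210 bases; whether counting used strand is unstated here. Fcgr3 belongs to a family of similar receptors, so its reads may be shared as well.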

How the data were processed

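A stranded mRNA kit was used, per the labels' protocols. The signal the authors deposited is a table of normalized estimated counts; the submitters' processing notes name Salmon 0.11.2, R 3.6.0, DESeq2 1.19.11 and GRCm38. No filter or strand setting is given in the sources read. Group differences were fitted by limma 3.58.1 (R 4.3.3, trend and robust options) on log2(value + 1), which understates changes of low genes, in 1 fit of the 12 groups. Genes with a mean of at least 10 were tested, p-values were adjusted (Benjamini-Hochberg) over all of them, and a gene was called below 0.05. Effects over both sexes are the mean of the female and male effects. The test was checked on simulated data for fluoxetine against vehicle in HT only, with the deviations of whole libraries reassigned at random. Because of that reassignment, the check cannot show the effect of shared litters or of libraries that stand apart in their group.

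The members and lists were chosen with earlier results of these data known. Named are all members, up to 4 called genes per companion list by smallest adjusted p, the ligands and the 15 genes most like the member mean, of which 1 is not reported here. Log2 changes are given ± their standard error. The labels give no litter, and drug came through the mother, so the p-values cover the spread between samples alone. Depth is unknown. Gene positions are those of GENCODE vM21 on GRCm38.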

Additional observations from a re-analysis of the deposited data

Results flagged for a closer look

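In groups of 4 or 5 libraries the gap between the extreme library and its nearest neighbour was compared with Dixon's critical value. Of 372 member groups tested, 40 exceeded it (10.8%), where chance gives about 1 in 20; members that move together are flagged together. HT fluoxetine male 3 was low in 11 members: P2ry12 (242), P2ry13 (120), Gpr34 (100.3), Csf1r (1728), Itgam (128), Fcrls (61.1), Siglech (106), Tmem119 (261), Ly86 (89.8), Selplg (260.0) and Olfml3 (131). Its mean log2 deviation over the members was -0.82, against -0.07 to -0.01 in the other 4 males of its group.

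HT vehicle female 2 was low in P2ry12 (921), Csf1r (2192), C1qc (819), Fcrls (504), Selplg (479) and Olfml3 (352). HT fluoxetine female 1 was low in Cx3cr1 (901), P2ry12 (683), Lgmn (2640) and Cd53 (127). WT vehicle female 1 was low in Gpr34 (287), Tmem119 (475) and Cd53 (169.9). HT lithium female 1 was high in Spi1 (134), Siglech (519), Aif1 (139) and Selplg (1040.5). Lgmn was high in WT vehicle male 2 (4110), HT fluoxetine male 1 (3205) and WT lithium male 5 (3394), and Laptm5 was low in WT vehicle male 2 (728).

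Sall1 was high in HT lithium female 5 (1711), HT lithium male 2 (1055) and WT lithium female 3 (1126). C3 was high in HT fluoxetine female 2 (20.6) and HT vehicle female 3 (60.1). Mertk was low in HT fluoxetine male 5 (1103) and WT lithium female 3 (1036), and Cd53 was high in WT lithium female 2 (233). Sall1 also differed between the sexes, male minus female, in the fluoxetine effect in WT (1.28 on the log2 scale) and in HT against WT under fluoxetine (-1.15), both by limma.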

How the results depend on the processing

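Counts of members called were recomputed under 13 other settings and without each library. In 1 of these settings, median-of-ratios scaling, every library had the same factor, 1.003. That setting could therefore change almost nothing. Fluoxetine against vehicle in HT (1 called) gave 0 with no filter, with no trend or robust option and with only the groups compared, 2 with quantile normalization or a length term, 4 with array weights and 0 to 2 without single libraries. Over both genotypes fluoxetine (5) gave 3 with no filter, 2 with only the groups compared and 0 with the length term. It gave 2 without both HT fluoxetine male 3 and WT vehicle male 2, and 2 to 6 without single libraries. A count of 6 was reached without HT fluoxetine male 3. Lithium in WT (1) gave 0 with no filter, quantile normalization, no trend or robust option, only the groups compared, array weights, the length term or without both libraries, and 0 to 1 without single libraries. Lithium over both genotypes (1) gave 2 at a mean of at least 50, 7 with array weights, 0 with the length term and 1 to 3 without single libraries. Lithium against fluoxetine in HT (1) gave 0 with no filter, only the groups compared or without both libraries, and 0 to 5 without single libraries. HT against WT over all treatments (1) gave 0 with no filter, the length term or without both libraries, 2 with array weights, and 0 to 3 without single libraries. Fluoxetine in WT (0) gave 0 to 1. The sex difference in HT against WT under fluoxetine (1) gave 0 with no filter and 0 to 1 without single libraries; that in the fluoxetine effect in WT (1) gave 0 with only the groups compared, array weights or without both libraries, and 0 to 2. The other 13 counts were 0 throughout. The only other settings run for the pairs were median-of-ratios scaling and leaving out both libraries. The scaling, with the same factor for every library, could not change the pairs. Without both libraries the same 8 member pairs passed for Pearson's r. By rank, Spi1 and Irf8 passed without both (permutation adjusted p = 0.0497). The counts without single libraries were highest without HT fluoxetine female 2 or HT vehicle male 2 (fluoxetine in HT), HT fluoxetine male 5 (lithium against fluoxetine in HT), WT vehicle male 1 (HT against WT over all treatments and fluoxetine in WT), WT vehicle male 3 (the sex difference in the fluoxetine effect in WT), and HT lithium female 1, WT lithium female 2, WT vehicle female 1 or WT vehicle male 1 (lithium over both genotypes). No member change with an unadjusted p under 0.05 reversed; the cause of these shifts was not tested, and comparisons that use all 12 groups have no value with only the groups compared.

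The replicate numbers do not pair the libraries: the mean correlation of deviations of same-numbered libraries was -0.01 (lowest -0.31), and 10 of 57 libraries correlated best with their own number. With the number as a block, fluoxetine in HT and lithium in WT each called 0 members, and fluoxetine over both genotypes 5. Precision is limited by the number of libraries, and depth is unknown. C3, near the filter, is the least certain member.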
